A study of Mus musculus with 36 samples.

Results

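The 36 genes described here encode the proteins that copy the genome: the licensing factors and helicase of the replication origin, the replicative polymerases, the sliding clamp and its loader, flap and ligation enzymes, nucleotide supply, chromatin assembly behind the fork, and the transcription factors E2F1 and E2F2. They were chosen by name as genes of this pathway, and are 36 of the 49585 features in the gene tables. All 36 were present and all 36 were tested. Total RNA of whole bladder was sequenced from C57BL/6 mice, all of which had undergone bilateral adrenalectomy, the removal of both adrenal glands and so of the main source of corticosterone. The mice then received CORT (corticosterone, given at the inactive timing per the labels) or vehicle only, and each treatment has 3 libraries at each of 6 time labels, 4, 8, 12, 16, 20 and 24 h, or 18 libraries per treatment and 36 in all. The labels state neither the dose, age and sex of the mice nor the event from which time is counted, and no group with intact adrenals was analysed here. The series title names the bladder's own clock and the daily pattern of micturition as its subject; the comparisons asked how the level and the time course of these transcripts differed between CORT and vehicle bladder.

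Replication starts when the origin recognition complex, CDC6 and CDT1 load the MCM2-7 ring onto DNA in G1, which is called licensing. CDC45, the GINS complex and MCM10 then turn the ring into a working helicase, polymerase alpha-primase lays down primers, polymerases epsilon and delta extend them, and PCNA, loaded by replication factor C, holds the polymerases on the template. Many of these genes are transcribed together at the G1/S transition under E2F factors, while genes of mitosis are transcribed later in the cycle. The adult bladder lining, the urothelium, normally renews slowly, so in whole bladder most RNA comes from cells that are not dividing. In such bulk RNA, fewer cells of a type and less RNA per cell cannot be told apart.

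The time of the replicate 3 libraries comes from their titles, since they have no time tag. Whether replicates are separate animals is not labelled, so p-values measure only the spread between these samples, and part of it may be technical. Mean total counts per library were 9591304 to 12311337 by treatment and replicate number. In single libraries 68 to 152 reads (median 96) gave a normalized value of 100, so the low members rest on few reads. Orc1 and Exo1, the only members with a library at 0, were at medians of 2 and 7 reads. In the authors' deposited tables of selected genes, 8 replicate 2 columns hold the values of libraries that bear other names in the full tables; by those names vehicle 16 and 20 h replicate 2 are CORT 4 and 8 h, and CORT 16 and 20 h replicate 2 are vehicle 4 and 8 h. The other 4 keep their treatment but not their time: CORT 4 and 8 h replicate 2 are CORT 16 and 20 h. In the same way vehicle 4 and 8 h replicate 2 are vehicle 16 and 20 h. The names of the full tables are used here, and results are also given without these 8 libraries or with the other names where that ends a call. The labels' protocol text describes isolation from blood with globin removal, although the source of every sample is whole bladder. Summed levels of urothelial markers (Upk1a, Krt5 and 8 others) were 43614 or more in every library and no marker of that list was at 0 in any, and the same held of 8 smooth muscle markers. Among markers of lymphocytes, Cd3d, Cd8a, Ms4a1, Cd79a and Nkg7 were at 0 in at least 1 library.

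Over the day, replication transcripts were lower in CORT than in vehicle bladder for 9 of 36 members and higher for 0 (limma, Benjamini-Hochberg adjusted p under 0.05 over 17867 features). Of all features tested, 4.11% were called in either direction and 2.82% were lower in CORT. The 9 were Dtl, Mcm6, Mcm10, Pole, Rrm1, Rrm2, Uhrf1, E2f1 and E2f2. They came from 6 of the 8 roles. The estimated ratios of CORT to vehicle, taken from the differences in log2(value + 1), were 0.458 (Dtl) to 0.877 (Rrm1). Of the 36 estimates, 27 lay below 0, against 42.8% of all features, and their median was -0.16 on the log2 scale against 0.02 for all features. Values are given as normalized counts, and differences as CORT minus vehicle in log2(value + 1), the mean of the 6 differences by time.

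**Figure D1:**
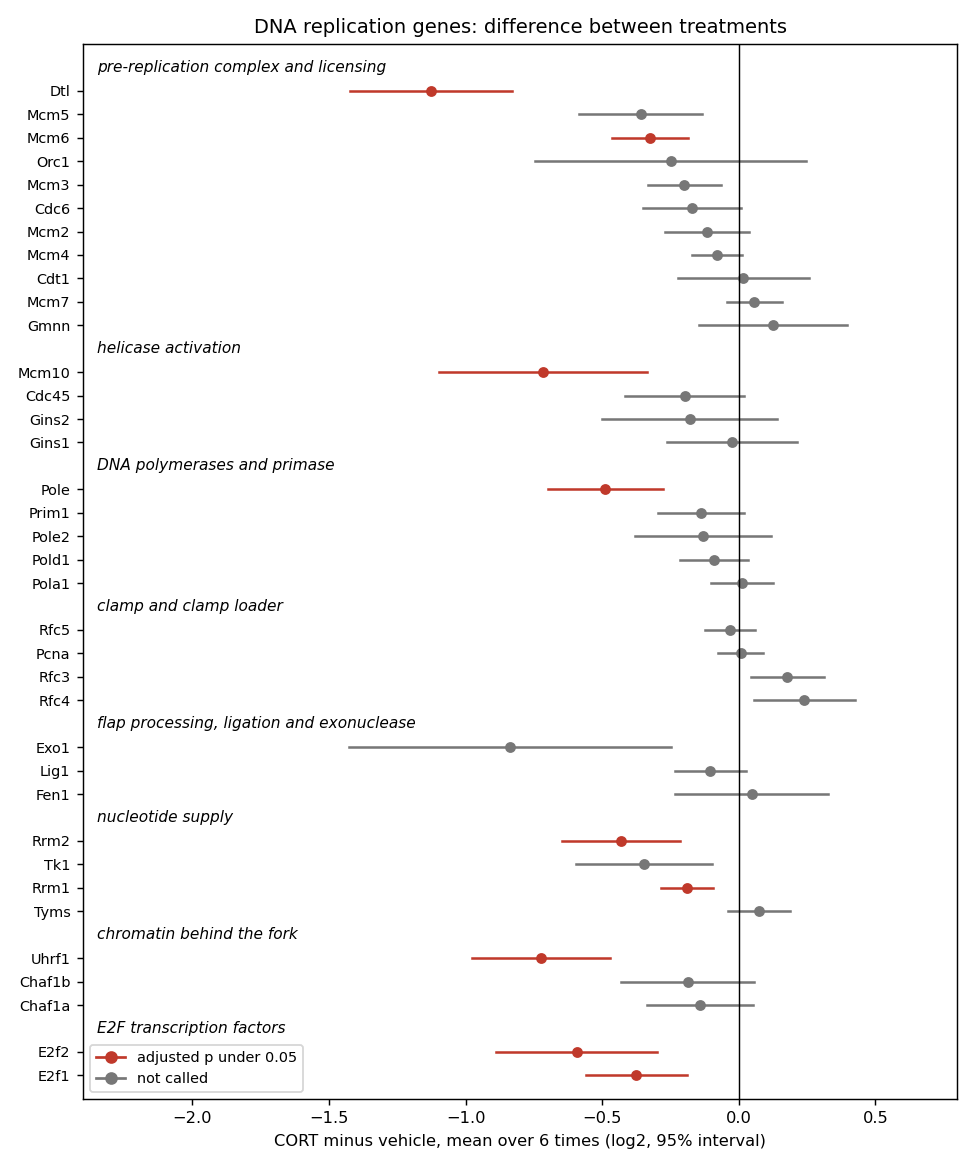
Difference between CORT and vehicle for each of the 36 members, as the mean over 6 times on the log2 scale (x axis), ordered by role; bars are 95% intervals from limma over 36 libraries, red where the adjusted p was under 0.05. The 9 red genes all lie to the left of 0, from Dtl at -1.13 to Rrm1 at -0.19, and the clamp loader genes Rfc3 and Rfc4 lie farthest to the right.

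In the licensing group, 2 of 11 members were lower, Dtl and Mcm6. Dtl (chromosome 1, 191537356 to 191575544, minus strand, mm10) encodes the substrate receptor of the ubiquitin ligase that removes CDT1 once replication has begun. Its value was 4.56 at lowest, 9.10 at the median and 22.3 at highest in the 18 CORT libraries, and 10.4, 19.6 and 58.3 in the 18 vehicle libraries. The ranges overlapped, but the CORT median lay below every vehicle library. The means were 9.29 ± 4.08 (SD, n = 18) and 22.2 ± 11.3 (SD, n = 18), a difference of -1.13 ± 0.14 (SE; limma adjusted p = 0.000174) with a 95% interval of -1.42 to -0.83. Mcm6 (chromosome 1, 128331590 to 128359664, minus strand), a subunit of the helicase ring, had values of 174, 213 and 267 (lowest, median and highest) in CORT and 202, 256 and 401 in vehicle. Its difference was -0.32 ± 0.07 (SE; limma adjusted p = 0.00717).

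The other ring subunits did not pass the test. Mcm5 was at 71.9 ± 18.5 (SD, n = 18) in CORT and 96.9 ± 42.2 in vehicle, a difference of -0.36 ± 0.11 (limma adjusted p = 0.0597). Mcm3 had a difference of -0.20 ± 0.06 (limma adjusted p = 0.0773). The 95% intervals for the remaining subunits were -0.27 to 0.04 for Mcm2, -0.17 to 0.01 for Mcm4 and -0.04 to 0.16 for Mcm7. The Mcm6 estimate lies outside each of these, but its own interval of -0.46 to -0.19 overlaps that of Mcm2. Whether the subunits differ from each other was not tested. At 16 h alone, Mcm2, Mcm4 and Mcm7 were at -0.53 ± 0.18, -0.35 ± 0.11 and -0.13 ± 0.12 (SE), and none was called. The ring loaders and their inhibitor gave no call either: Cdc6 was at -0.17 ± 0.09, Cdt1 at 0.02 ± 0.12 and Gmnn, which encodes the CDT1 inhibitor geminin, at 0.13 ± 0.13. Orc1, the largest subunit of the origin recognition complex, was the scarcest member and its interval of -0.75 to 0.25 bounds it poorly.

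Of the 4 helicase activation genes, Mcm10 was lower. It had values of 2.08, 5.19 and 10.7 (lowest, median and highest) in CORT and 2.86, 9.54 and 26.8 in vehicle, so the ranges overlapped over most of the CORT values. The difference was -0.72 ± 0.19 (SE; limma adjusted p = 0.0285), on a median of 7 reads and as few as 2 in a library. Mcm10 is also the member whose call was weakest: leaving out CORT 16 h replicate 2, vehicle 8 h replicate 3 or vehicle 12 h replicate 3 moved its adjusted p to between 0.0508 and 0.0525, while the other 8 called members kept their calls whichever of the 36 libraries was left out. The helicase cofactor Cdc45 was at -0.20 ± 0.11, and the GINS subunits Gins1 and Gins2 were at -0.02 ± 0.12 and -0.18 ± 0.16.

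Among the 5 polymerase and primase genes, Pole was lower. Pole (chromosome 5, 110286306 to 110337474, plus strand) encodes the catalytic subunit of polymerase epsilon, which copies the leading strand. Its value was 17.6, 38.4 and 55.8 (lowest, median and highest) in CORT and 28.4, 53.0 and 73.3 in vehicle. The difference was -0.49 ± 0.10 (SE; limma adjusted p = 0.0074). Its partner subunit Pole2 had a difference of -0.13 with an interval of -0.38 to 0.12. Intervals for the catalytic subunits of polymerases alpha and delta were -0.10 to 0.13 (Pola1) and -0.22 to 0.03 (Pold1), and both exclude the estimate for Pole. Prim1, the catalytic primase subunit, was at -0.14 ± 0.08.

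No clamp or clamp loader gene was called. Pcna (chromosome 2, 132249162 to 132253314, minus strand), the sliding clamp and the member with the highest level per exon length (168 per kb in vehicle; Mcm4 followed at 83.8 and Orc1 was lowest at 0.763), was at 403 ± 30.0 (SD, n = 18) in CORT and 403 ± 46.7 in vehicle. Its difference was 0.01 with an interval of -0.08 to 0.09. The loader subunits Rfc3 and Rfc4 were at 0.18 ± 0.06 (limma adjusted p = 0.118) and 0.24 ± 0.09 (limma adjusted p = 0.128), and Rfc5 was at -0.03 ± 0.04. The median of these 4 genes was 0.09.

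No flap, ligation or exonuclease gene was called. Exo1, a 5' exonuclease, had the second lowest estimate of all members, -0.84, but its SE was 0.29 (limma adjusted p = 0.0953) and its median depth was 7 reads. Fen1, the flap endonuclease, was at 0.05 ± 0.14 and Lig1, the ligase that joins Okazaki fragments, at -0.10 ± 0.06.

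Nucleotide supply had 2 of 4 members lower, both subunits of ribonucleotide reductase. Rrm2, the small subunit whose amount normally follows S phase, had values of 29.3, 49.4 and 79.3 (lowest, median and highest) in CORT and 42.6, 68.6 and 102 in vehicle, a difference of -0.43 ± 0.11 (SE; limma adjusted p = 0.0214). Rrm1, the large subunit, was at 416, 466 and 640 in CORT and 418, 544 and 682 in vehicle, a difference of -0.19 ± 0.05 (limma adjusted p = 0.0223). The ranges of Rrm1 overlapped widely, and the shift, 12.3% lower in CORT, was small but measured on a median of 486 reads. Tk1, thymidine kinase, was at -0.35 ± 0.12 (limma adjusted p = 0.10), and Tyms, thymidylate synthase, was at 0.07 ± 0.06.

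Of the chromatin genes, Uhrf1 was lower. Uhrf1 (chromosome 17, 56303321 to 56323486, plus strand) encodes the protein that brings DNMT1 to newly copied, hemimethylated DNA. Its value was 28.1, 35.1 and 64.6 (lowest, median and highest) in CORT and 35.4, 61.8 and 151 in vehicle, so that the CORT median lay just under the lowest vehicle library. The difference was -0.72 ± 0.12 (SE; limma adjusted p = 0.00174). The histone chaperone subunits Chaf1a and Chaf1b were at -0.14 ± 0.09 and -0.19 ± 0.12. Both E2F genes were lower: E2f1 was at 46.7 ± 8.77 (SD, n = 18) in CORT and 60.4 ± 8.97 in vehicle, a difference of -0.37 ± 0.09 (limma adjusted p = 0.0198), and E2f2 at 11.1 ± 3.74 and 17.2 ± 5.45, a difference of -0.59 ± 0.14 (limma adjusted p = 0.0200).

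**Figure D2:**
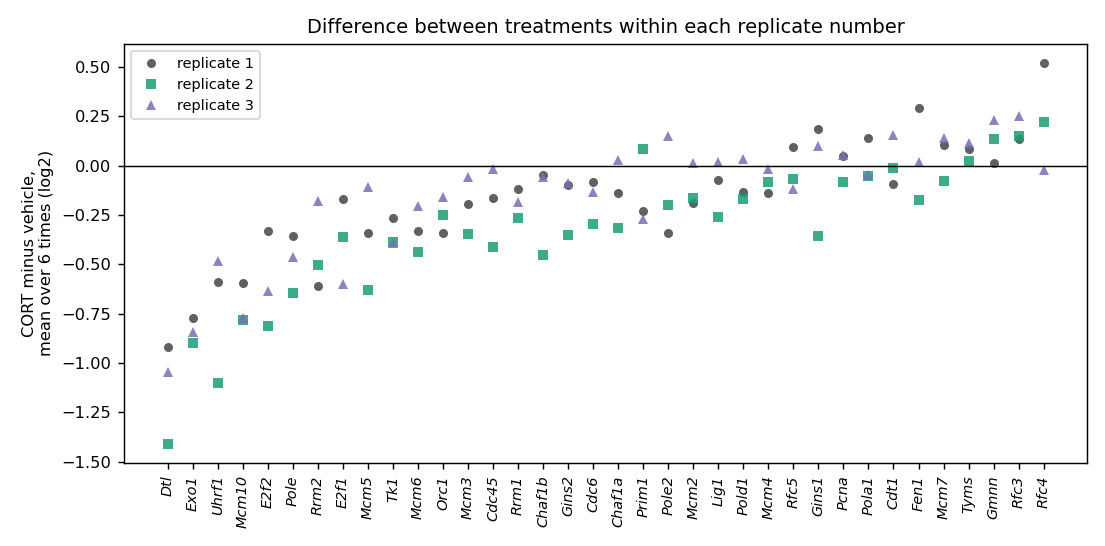
Difference between CORT and vehicle, as the mean over 6 times on the log2 scale (y axis), computed within replicate number 1, 2 or 3 (symbols; 6 CORT and 6 vehicle libraries each) for the 36 members, ordered by their mean difference. All 9 called members lie below 0 in each replicate number, and replicate 2 (squares) is the lowest of the 3 for many members.

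Computed within each replicate number, all 9 called members had differences below 0 in each of the 3. For Dtl they were -0.92, -1.41 and -1.05 in replicates 1, 2 and 3, for Uhrf1 -0.59, -1.10 and -0.48, and for Mcm6 -0.33, -0.44 and -0.21. Of all members, 26, 31 and 23 of 36 were below 0 in replicates 1, 2 and 3, with medians of -0.14, -0.28 and -0.06. Only 19 of 36 members were below 0 in each of the 3, and the called members were chosen by the mean of these same libraries. The share of all features below 0 by replicate number was not counted. The calls lean on the replicate 2 libraries: without them 0 of 36 members and 1 feature of all were called. Without replicate 3 the calls were 2 members (Dtl and Uhrf1), and without replicate 1 they were 7. Fewer libraries leave less power, and how many of all features kept their calls in these fits was not counted. Without the 8 libraries named in both ways only Dtl was called (limma adjusted p = 0.0336), and with the names of the selected-gene tables there were 0 members and 0 features.

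The promoters of these genes are of interest because E2F factors are known to bind them. RefSeq sequence (GRCm38.p6) from 250 bases before to 50 after the start was found for 30 of the 36 members. It was searched on both strands for 4 words of the E2F site, TTTCCCGC, TTTCGCGC, TTTGGCGC and TTTGCCGC, counting overlapping matches. At least 1 word was found in 15 of 30 members, in 704 of 27025 genes in the same table (2.60%) and in 1 of 20 mitosis genes. The word did not set the called members apart: 4 of the 8 called members with a sequence held it, and 11 of the 22 others. The 160 bases before the RefSeq start are shown for called members Dtl and Mcm6 and for 3 members not called. Of these, Mcm5 and Rfc3 hold a word and Pcna holds none. Capitals mark the words, which overlap in Mcm6 and in Mcm5. RefSeq starts can differ from the GENCODE gene positions given elsewhere. Most of the Pcna stretch, and the Rfc3 word shown, lie within the GENCODE gene.
Dtl: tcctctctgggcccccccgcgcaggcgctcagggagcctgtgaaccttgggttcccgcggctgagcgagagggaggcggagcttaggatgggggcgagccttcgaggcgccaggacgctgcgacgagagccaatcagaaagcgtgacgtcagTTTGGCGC
Mcm6: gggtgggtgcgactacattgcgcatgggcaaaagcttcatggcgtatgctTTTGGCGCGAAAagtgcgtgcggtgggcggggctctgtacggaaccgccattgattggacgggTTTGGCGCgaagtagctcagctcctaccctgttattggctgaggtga
Mcm5: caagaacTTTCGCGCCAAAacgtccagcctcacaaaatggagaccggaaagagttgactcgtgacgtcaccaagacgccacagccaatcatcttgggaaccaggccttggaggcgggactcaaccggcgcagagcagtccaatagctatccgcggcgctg
Rfc3: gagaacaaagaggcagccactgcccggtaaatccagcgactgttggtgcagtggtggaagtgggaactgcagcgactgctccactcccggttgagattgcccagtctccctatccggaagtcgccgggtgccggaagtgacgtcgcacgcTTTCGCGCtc
Pcna: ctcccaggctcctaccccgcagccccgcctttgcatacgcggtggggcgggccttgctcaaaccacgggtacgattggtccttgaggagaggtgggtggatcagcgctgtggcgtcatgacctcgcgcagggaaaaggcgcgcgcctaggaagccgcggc
The stretches are chr1:191575545-191575704 (minus strand) for Dtl, chr1:128359706-128359865 (minus) for Mcm6, chr8:75109349-75109508 (plus) for Mcm5, chr5:151651209-151651368 (minus) for Rfc3 and chr2:132253181-132253340 (minus) for Pcna. In Dtl the word begins 8 bases before the start and in Rfc3 10 bases before it. Rfc3 also holds TTTCCCGC on the opposite strand in the part searched, outside the stretch shown. In Mcm6 words begin 110, 106 and 47 bases before the start, and in Mcm5 153 and 149 bases before it. Dtl and Rfc3 thus carry a word next to the RefSeq start. Whether the place of a word goes with the difference between treatments was not tested. A match is a description of these letters and does not show binding.

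At single times, members differed most at 16 h. Dtl was at 6.39, 4.56 and 5.5 in CORT replicates 1, 2 and 3 and at 26.7, 58.3 and 19.0 in vehicle. Each CORT library lay below each vehicle library, and vehicle replicate 2 stood far above the rest. The Dtl means were 5.48 in CORT and 34.7 in vehicle. The ratio of CORT to vehicle, taken from log2(value + 1), was 0.201, a difference of -2.31 ± 0.35 (SE; limma adjusted p = 0.0110). Pole was at 21.9, 20.8 and 17.6 in CORT and at 43.6, 69.7 and 71.6 in vehicle. Its ratio, taken in the same way, was 0.344, a difference of -1.54 ± 0.25 (SE; limma adjusted p = 0.0154). Here too the groups did not overlap, and the 3 CORT libraries were the lowest of all 36 for this gene. Dtl and Pole were the only features called at 16 h among the 17867 tested (0.0112%). At 4, 8, 12, 20 and 24 h, 0 members were called, while 0.162%, 0.795%, 0.0448%, 0% and 0.0336% of all features were.

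**Figure D3:**
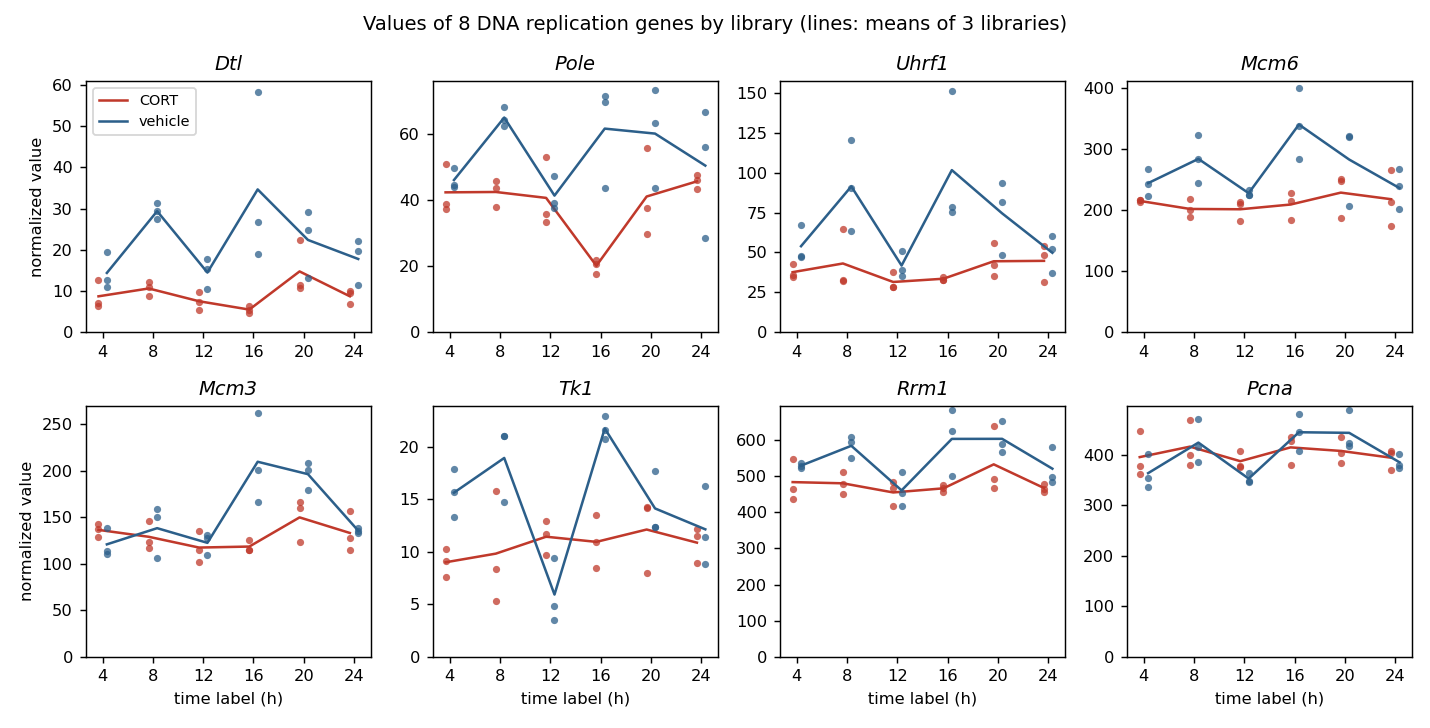
Normalized value (y axis, from 0) of 8 members in each of the 36 libraries against the time label in h (x axis); points are libraries, lines join the means of 3 libraries, CORT in red and vehicle in blue. At 16 h the 3 CORT libraries lie below the 3 vehicle libraries for Dtl, Pole, Uhrf1, Mcm6, Mcm3, Tk1 and Rrm1, and overlap them for Pcna.

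Many members that were not called at 16 h showed the same order. At an unadjusted p under 0.05, 21 of 36 members were lower in CORT and 0 higher, against 2.14% of all features lower. All 3 CORT libraries lay below all 3 vehicle libraries for 19 of 36 members, against 3.24% of features, and 32 of 36 estimates were below 0, against 50.8%. Uhrf1 was at 32.8, 34.8 and 32.9 in CORT and 75.3, 151 and 78.2 in vehicle (-1.50 ± 0.30; limma adjusted p = 0.107). Mcm3 was at 115, 115 and 125 against 201, 262 and 166 (-0.79 ± 0.16; limma adjusted p = 0.107). Mcm5 was at 57.8, 77.8 and 72.8 against 151, 217 and 86.3 (-1.03 ± 0.27; limma adjusted p = 0.50). These ring subunits, with Mcm6 at 184.6, 215.3 and 228.4 against 338, 401 and 284, were separated between the treatments at 16 h although only Mcm6 was called over the day. Orc1, at 0, 1.33 and 2.69 against 7.14, 7.36 and 5.14, was also separated, on very few reads. Members without separation at 16 h included Pcna, at 428, 436 and 381 against 446, 481 and 408, as well as Fen1, Tyms, Pola1, Rfc3, Rfc4, Cdc45, Gins2 and E2f1.

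The 16 h difference depended on few libraries. The summed value of the 36 members was 3372, 3644 and 3490 in CORT 16 h and 4408, 5222 and 4106 in vehicle 16 h, and vehicle 16 h replicate 2 stood highest of all 36 libraries in the median deviation of members from their own means (0.56 on the log2 scale, against 0.27 and 0.24 in vehicle 16 h replicates 1 and 3). That library is among the 8 that bear other names in the selected-gene tables. Without it 0 features were called at 16 h, and the Dtl and Pole differences were -1.87 (limma adjusted p = 0.176) and -1.44 (limma adjusted p = 0.176). The 2 calls were also lost without CORT 16 h replicate 2, and Pole was lost without CORT or vehicle 16 h replicate 3. Leaving out replicate 1, 2 or 3 throughout, leaving out the 8 libraries named in both ways, or using their other names each gave 0 members called at 16 h. Against vehicle 16 h replicates 1 and 3 alone, all 3 CORT libraries were lower for 20 of 36 members and 9.21% of features, a count that leaving out a library cannot lower.

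At 8 h the picture was narrower. Of the members, 12 of 36 were lower and 2 higher in CORT at an unadjusted p under 0.05, against 7.86% and 7.29% of features. Dtl was at 8.81, 12.1 and 10.9 in CORT and 27.4, 31.4 and 29.4 in vehicle, tight groups that did not overlap (-1.40 ± 0.35; limma adjusted p = 0.0547). Mcm10, E2f2, Rrm2, Cdc45, E2f1, Mcm6, Pole, Mcm5, Prim1 and Rrm1 also had all CORT below all vehicle libraries, making 11 of 36 against 10.6% of features. The 2 members on the higher side were both clamp loader subunits, Rfc3 at 162, 155 and 155 against 124, 110 and 115 (0.43 ± 0.16; limma adjusted p = 0.186) and Rfc4 at 87.7, 70.6 and 47.6 against 50.1, 43.4 and 43.3 (0.54 ± 0.22; limma adjusted p = 0.242). At 4, 12, 20 and 24 h, 1, 2, 3 and 1 members were lower at an unadjusted p under 0.05, against 3.19%, 2.61%, 2.80% and 3.46% of features.

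Whether the treatment difference itself changed with time was tested with an F test over the 6 times. It called 0 of 36 members and 24 of 17867 features (0.134%). At an unadjusted p under 0.05 there were 5 members, Tk1, Pole, Mcm3, Dtl and Uhrf1, against 5.51% of features, and the lowest adjusted p was 0.279 for Tk1. The order of the treatments turned between times for Tk1, Fen1 and Rfc5. Their CORT libraries all lay above the vehicle libraries at 12 h (Tk1, Fen1) or 4 h (Rfc5). The CORT libraries all lay below the vehicle libraries at 16 h (Tk1, Rfc5) or 20 h (Fen1). The share of all features with such a turn was not counted, and the F test called none of these genes. Tk1 was at 11.7, 12.9 and 9.69 in CORT and 4.86, 9.39 and 3.53 in vehicle at 12 h, and at 10.9, 13.5 and 8.42 against 21.6, 22.9 and 20.7 at 16 h. A larger difference at 16 h than at other times is therefore a description of these libraries and was not established by this test. Over the day, 5 members stayed called without the 16 h libraries (Dtl, Uhrf1, Rrm2, E2f1 and E2f2) and 2 without the 8 h libraries (Dtl and Uhrf1). The share of all features that stayed called was not counted, and fewer libraries leave less power.

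**Figure D4:**
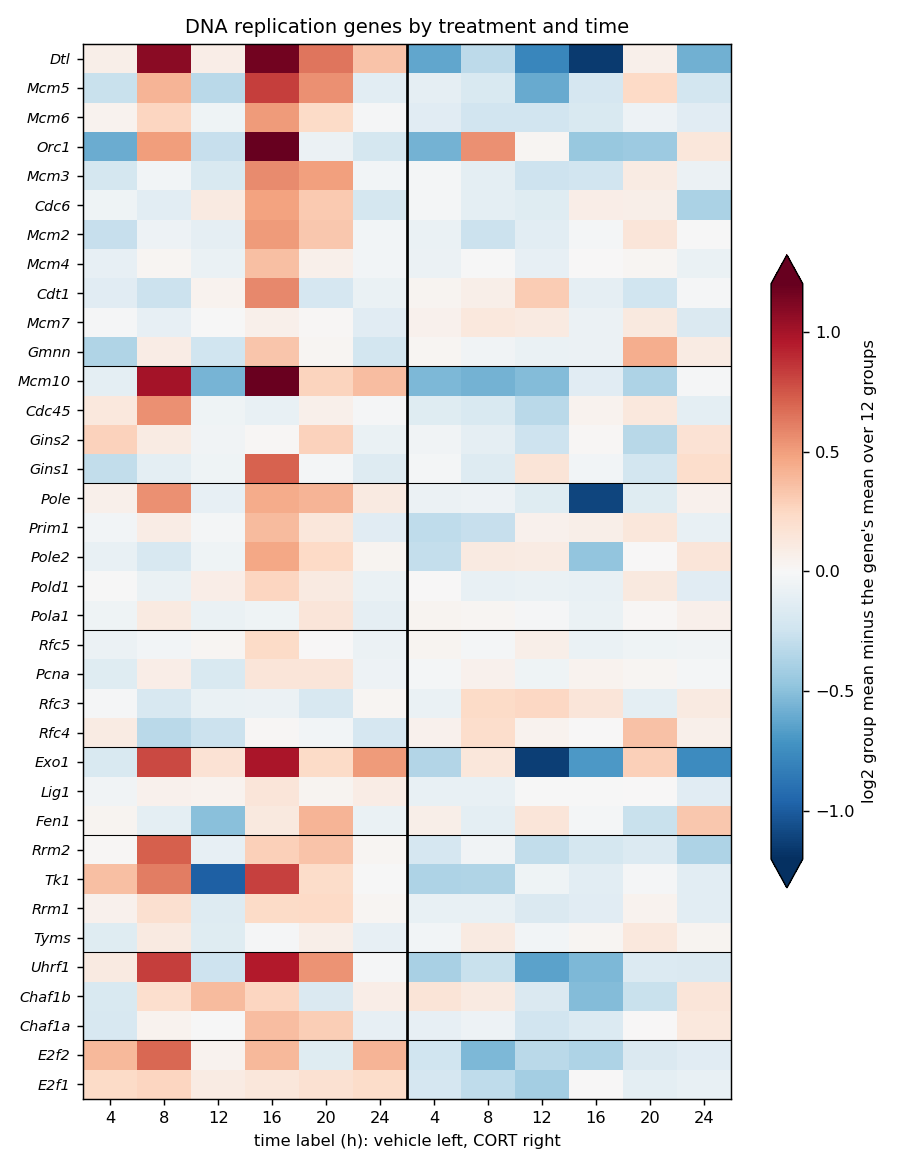
Mean log2 value of each member in each of the 12 groups, relative to its mean over the groups (colour; values past 1.2 in either direction are drawn at the end of the scale), with vehicle in the left 6 columns and CORT in the right 6, time labels in h; lines separate the roles. Vehicle 16 h and vehicle 8 h are the reddest columns, and for Dtl, Pole and Exo1 CORT 16 h or 12 h is the bluest cell of its row.

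Within vehicle bladder, 23 of 36 members had their highest group mean at 16 h, against 26.9% of features. Without vehicle 16 h replicate 2 this was 14 of 36, against 28.8%. In CORT bladder 2 members were highest at 16 h (17.5% of features) and 17 at 20 h (12.8%). The test of a 24 h cosine called 0 of 36 members in vehicle, where 0.429% of features were called, and 0 in CORT, where 0 of 17921 features were. At an unadjusted p under 0.05 it gave 8 members in vehicle, against 12.6% of features, and 2 in CORT (Pole and Prim1), against 5.89%. The lowest adjusted p in vehicle was 0.112, for Mcm3, with an amplitude of 0.37 on the log2 scale, mean to peak, and a fitted peak at 18.1 h on the label clock. Mcm2 (amplitude 0.34, peak 17.5 h, limma adjusted p = 0.125) and Cdc6 (0.31, 16.4 h, limma adjusted p = 0.171) followed, both of the licensing group.

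**Figure D5:**
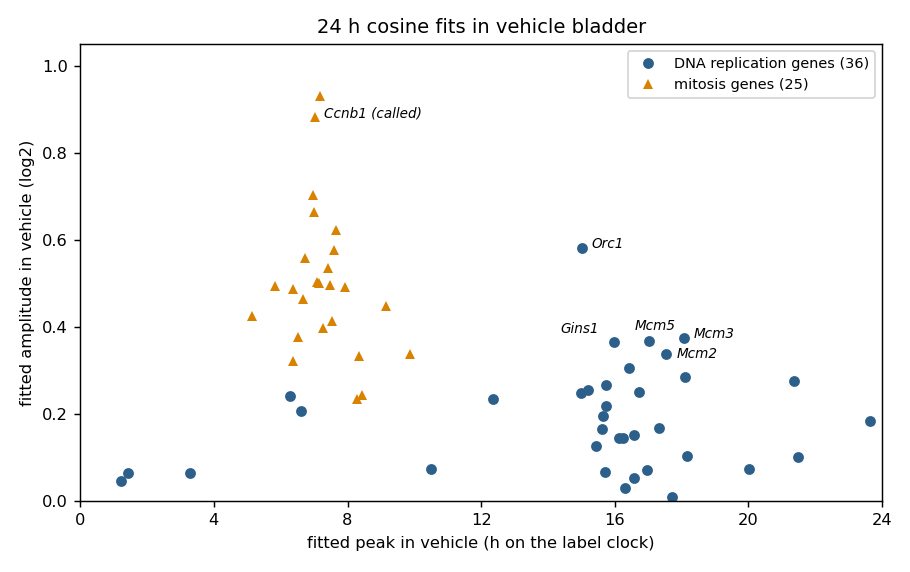
Fitted amplitude (y axis, log2, mean to peak) against fitted peak time (x axis, h on the label clock) of the 24 h cosine in the 18 vehicle libraries, for the 36 replication genes (circles) and 25 mitosis genes (triangles). The mitosis genes all peak from 2 to 10 h and 26 of the 36 replication genes from 12 to 20 h; of all points, only Ccnb1 passed the test of a rhythm.

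Although no single member passed, fitted vehicle peaks lay close together: 26 of 36 members had a peak from 12 to 20 h (38.0% of features) and 3 from 2 to 10 h (34.7%). This lean was not particular to the members. The window from 12 to 20 h also held 29 of 53 other replication genes, 14 of 26 genes of E2F, RB and G1/S control and 9 of 10 urothelial markers. It held 0 of the smooth muscle (8), fibroblast (7) and endothelial (8) markers. The members share the same 18 libraries, vehicle 16 h replicate 2 among them. In CORT 6 of 36 fitted peaks lay from 12 to 20 h, against 35.0% of features. The test of a difference in rhythm between treatments called 0 members and 0.106% of features, and 3 members (Mcm3, Chaf1a and Chaf1b) had an unadjusted p under 0.05, against 4.37%.

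Genes of mitosis differed from the replication genes in size and timing. Of 25 mitosis genes, 21 were lower in CORT over the day and 0 higher, with a median of -0.76, against 9 of 36 members and a median of -0.16. The proliferation antigen Mki67 was at 175 ± 78.9 (SD, n = 18) in CORT and 366 ± 179 in vehicle (-1.06 ± 0.16; limma adjusted p = 0.000867). Cenpf, a kinetochore protein, was at -1.07 ± 0.19 and Prc1, which bundles the central spindle, at -1.05 ± 0.15. The mitosis median was lower at 8 h (-1.34, 22 of 25 lower at an unadjusted p under 0.05) than at 16 h (-0.76, 10 of 25), whereas the member median was lower at 16 h (-0.45, 21 of 36) than at 8 h (-0.12, 12 of 36). All 25 mitosis genes had fitted vehicle peaks from 2 to 10 h and 0 from 12 to 20 h, and 1 of them, Ccnb1 (cyclin B1), was called rhythmic (limma adjusted p = 0.00877, peak 7.04 h). The difference between the lists was not tested.

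Of 53 other replication genes, 2 were lower and 1 higher over the day, with a median of -0.00. At an unadjusted p under 0.05, 9 of 53 were lower at 16 h (2.14% of features) and 6 of 53 at 8 h (7.86%). Their medians were -0.08 at 16 h and 0.05 at 8 h. The summed value of this list at 16 h was 10993 to 11219 in CORT and 11509 to 11745 in vehicle, without overlap. Clspn, which encodes the checkpoint mediator claspin, was at 10.1 ± 3.93 (SD, n = 18) in CORT and 18.4 ± 6.45 in vehicle (-0.81 ± 0.15; limma adjusted p = 0.00382). Dck, deoxycytidine kinase, was at -0.25 ± 0.07 (limma adjusted p = 0.0336), and Orc4, an origin recognition subunit, was higher at 0.16 ± 0.04 (limma adjusted p = 0.0271). Among 26 genes of E2F, RB and G1/S control, 1 was lower over the day, the repressor E2f7 (-0.92 ± 0.24; limma adjusted p = 0.0295), and the median was -0.04. Of these 26, 2 were lower at 16 h and 0 at 8 h at an unadjusted p under 0.05.

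Markers of some cell types moved with the treatment. Of 8 endothelial markers, 6 were lower in CORT over the day and 0 higher (median -0.36; Pecam1 at -0.38 ± 0.07, limma adjusted p = 0.0022). Their summed value ranged from 2460 to 4294 in CORT and from 3135 to 6216 in vehicle. Of 7 fibroblast markers, 3 collagen genes were lower and 0 higher (Col1a1 at -0.56 ± 0.12, limma adjusted p = 0.0104). The summed endothelial value at 8 h was 2460 to 3313 in CORT and 5058 to 5160 in vehicle; at 16 h, where the members differed most, it was 3232 to 4276 and 3135 to 4476. The summed fibroblast value was lower in every CORT library than in every vehicle library at both times. It was 117980 to 153320 against 203110 to 286650 at 8 h, where 4 of 7 markers were lower at an unadjusted p under 0.05. At 16 h it was 140500 to 171240 against 172400 to 195980, and 0 of 7 were. The 3 collagen genes make up most of this sum, with vehicle means of 70380, 50385 and 48013 against 24427 for Dcn, the next highest. Over the day Dcn, Lum, Dpt and Pdgfra were at 0.08, 0.02, -0.06 and -0.18 and were not called. The 5 adipocyte markers, of which Adipoq, Lep and Cidec were at 0 in some library, varied widely, with a median difference of 2.48 at 16 h, a summed value of 2473 to 3917 in CORT and 2263 to 3387 in vehicle, and 0 called over the day. No marker of urothelium (10), smooth muscle (8), myeloid cells (5 tested), lymphocytes (8) or erythroid cells (7) was called. The part of these markers in the members' differences was not tested.

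The authors' deposited tables of selected genes, with 2-fold and p limits in their names, hold 4 members in the vehicle list made on 12 libraries: Mcm5, Cdt1, Orc1 and Tk1. Tk1 is also in the vehicle list made on 18 libraries, and 0 members are in the CORT lists. Since that selection used these very libraries, it is no independent evidence of a time course.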

How the data were processed

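Per the labels' protocols, rRNA was depleted and a directional library kit used. The submitters' processing notes name mm10; the aligner, read counter and strand setting are not stated in these sources. The authors deposited a linear signal per gene: read counts quantile normalized over the 12 libraries of each table, as the values themselves show. The deposited lists of selected genes hold log2 values. Members and lists were chosen with earlier results of these data known. All members are named, and values per library are given for those the results turn on.

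A common scale for 36 libraries was rebuilt from the sorted values of 6 tables, tested on simulated data. Features at the lowest value in over 50% of libraries were left out; values were taken as log2(value + 1), which understates changes of low genes. limma 3.58.1 (R 4.3.3) fitted 12 group means, sharing 24 residual degrees of freedom, with two-sided tests and Benjamini-Hochberg adjustment at 0.05. The rhythm test used a cosine and a sine of 24 h. Other pseudocounts, filters, scalings, weights, a replicate block and omitted libraries were tried. Positions are from GENCODE M21; levels per kb are per union exon length.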

Additional observations from a re-analysis of the deposited data

How the results depend on the processing

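Over the day, the count of 9 members called (734 features) was the same or within 1.5 times under other pseudocounts, no filter, a minimum mean of 10, median-of-ratios rescaling, an intensity trend and an additive model. It was 15 members (14 lower, 1 higher) and 3145 features with library weights, 1 member (6 features) without the 8 libraries named in 2 ways, 0 (0) with the selected-gene tables' names and 0 (0) in replicate 3 alone. Chosen after seeing the data, it was 2 members (23 features) without the 8 h and 5 members without the 16 h libraries. Leaving out libraries or a replicate number gave 0 to 11 members and 1 to 1282 features; single libraries alone gave 8 to 11 members. At 16 h, library weights gave 7 members (31 features), both the omission of the 8 libraries and the other names gave 0 (0), and leaving out libraries or a replicate number gave 0 to 2 members and 0 to 4 features. At 8 h, pseudocount 10, a minimum mean of 10 and median-of-ratios rescaling each gave 1 member. Library weights gave 6 at 8 h, and leaving out libraries 0 to 1. Features called at 8 h rose from 142 to 263 with pseudocount 10, and were 5 to 287 without single libraries. Library weights gave 5 members for differences between times. Since library weights raised the calls among all features over the day from 734 to 3145, these added members are not read as particular to the list. Fewer libraries leave less power; the cause was otherwise not tested.

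The fit with a replicate block called 10 members over the day, among 1240 features, and 1 at 8 h; it changed no called member's call. Same-numbered libraries deviated together only weakly (mean correlation 0.056, from -0.35 to 0.35, 62 of 198 pairs over 0.1, against -0.028 for other numbers), although 30 of 36 libraries correlated best with their own number, which is a hint from the data and not from the design.

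Some members that were not called changed sign over the day. With the selected-gene tables' names, Mcm2 was at 0.031, Mcm3 0.015, Gins1 0.16, Gins2 0.014, Pold1 0.0093, Orc1 0.0054 and Chaf1a 0.020. In replicate 3 alone, Mcm2 was at 0.011, Gins1 0.098, Pole2 0.15, Pola1 -0.049, Pold1 0.032, Chaf1a 0.029, Rfc4 -0.022 and Lig1 0.019. Without the 8 libraries Gins1 was at 0.098. Without the 16 h libraries Gins1 was at 0.12, Pole2 0.029, Orc1 0.073 and Rfc5 0.025, and without the 8 h libraries Cdt1 was at -0.047. Median-of-ratios rescaling gave Pola1 -0.0010 and Pcna -0.0072, and library weights Pcna -0.027. Leaving out libraries or a replicate number gave ranges of -0.13 to 0.14 for Gins1, -0.051 to 0.046 for Pola1, -0.053 to 0.072 for Cdt1, -0.016 to 0.050 for Pcna, -0.093 to 0.012 for Rfc5 and -0.077 to 0.16 for Fen1. Depth limits Orc1, Exo1 and Mcm10 most, at medians of 2, 7 and 7 reads.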
